A study of Danio rerio with 15 samples.

Results

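The mitochondrial ribosomal protein genes are the nuclear genes whose symbols begin with mrpl or mrps, for the large and the small subunit of the ribosome inside mitochondria, followed by a digit. By that rule 73 of the 22513 genes in the deposited table belong to the set. They were compared in zebrafish between 7 brain tumors, whose libraries carry the numbers 5 to 8 and 12 to 14, and 8 normal brains, with the numbers 1 to 4, 9 to 11 and 15. The submitters describe the tumors as CNS-PNET, primitive neuroectodermal tumors of the central nervous system, and name as their driver the GTPase NRAS, a growth signalling switch. The normal libraries came from whole brain. The labels used here give no strain, age, sex, promoter or further allele for either group, and do not tell whether each library is a different fish. The p-values therefore measure only the spread between these samples, which may be technical.

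Polyadenylated RNA was sequenced, and the libraries held 13605588 to 21347976 counts in brain tumor and 14013245 to 18239799 in normal brain. No member was near the limit of detection: single members had 100 to 1736 counts in a library, against a limit of 3 counts, which covers counting error only. Values of single genes are given as CPM, counts per 1000000 after scaling of library sizes, or as FPKM, the authors' values, which also take account of transcript length. Some libraries stood apart. Liver markers summed to 13500 CPM in normal brain 1 and to 10.9 to 24.4 CPM in the other normal brains. Photoreceptor markers reached 181 CPM in normal brain 2, and skin markers 4820 CPM in normal brain 4. Brain tumor 13 had the lowest scaling factor, 0.825, and the smallest number of genes with a count, 20458.

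Mitochondria keep a small genome of their own. The few membrane proteins it encodes, all of them parts of the respiratory chain and the ATP synthase, are made on ribosomes that contain RNA from that genome and proteins that are imported from the cytosol. Some of these proteins have counterparts in bacterial ribosomes and others are found only in mitochondria. Loss of single mitoribosomal proteins in people causes respiratory chain disorders, often of brain, heart or liver.

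The set was higher in brain tumor, by a modest and fairly even amount. Of the 73 members 61 rose, 1 fell and 11 did not pass an adjusted p of 0.05, while 43.5% of the 19260 genes tested rose and 33.4% fell. That is 83.6% of the members in the higher direction and 1.37% in the lower. The median log2 fold change of the members was 0.55, or 1.46-fold, with a middle range of 0.32 to 0.74 and extremes of -0.41 and 1.42. Large changes were rare among them. Only 3 members (4.11%) rose by at least 2-fold, against 27.3% of all genes tested. In 26 members (35.6%) every tumor lay above every normal brain, which was so in 27.2% of all genes, and in 0 members every tumor lay below every normal brain, against 24.6% of all genes. In bulk tissue, more transcript per cell and more cells with a high level cannot be told apart.

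**Figure D1:**
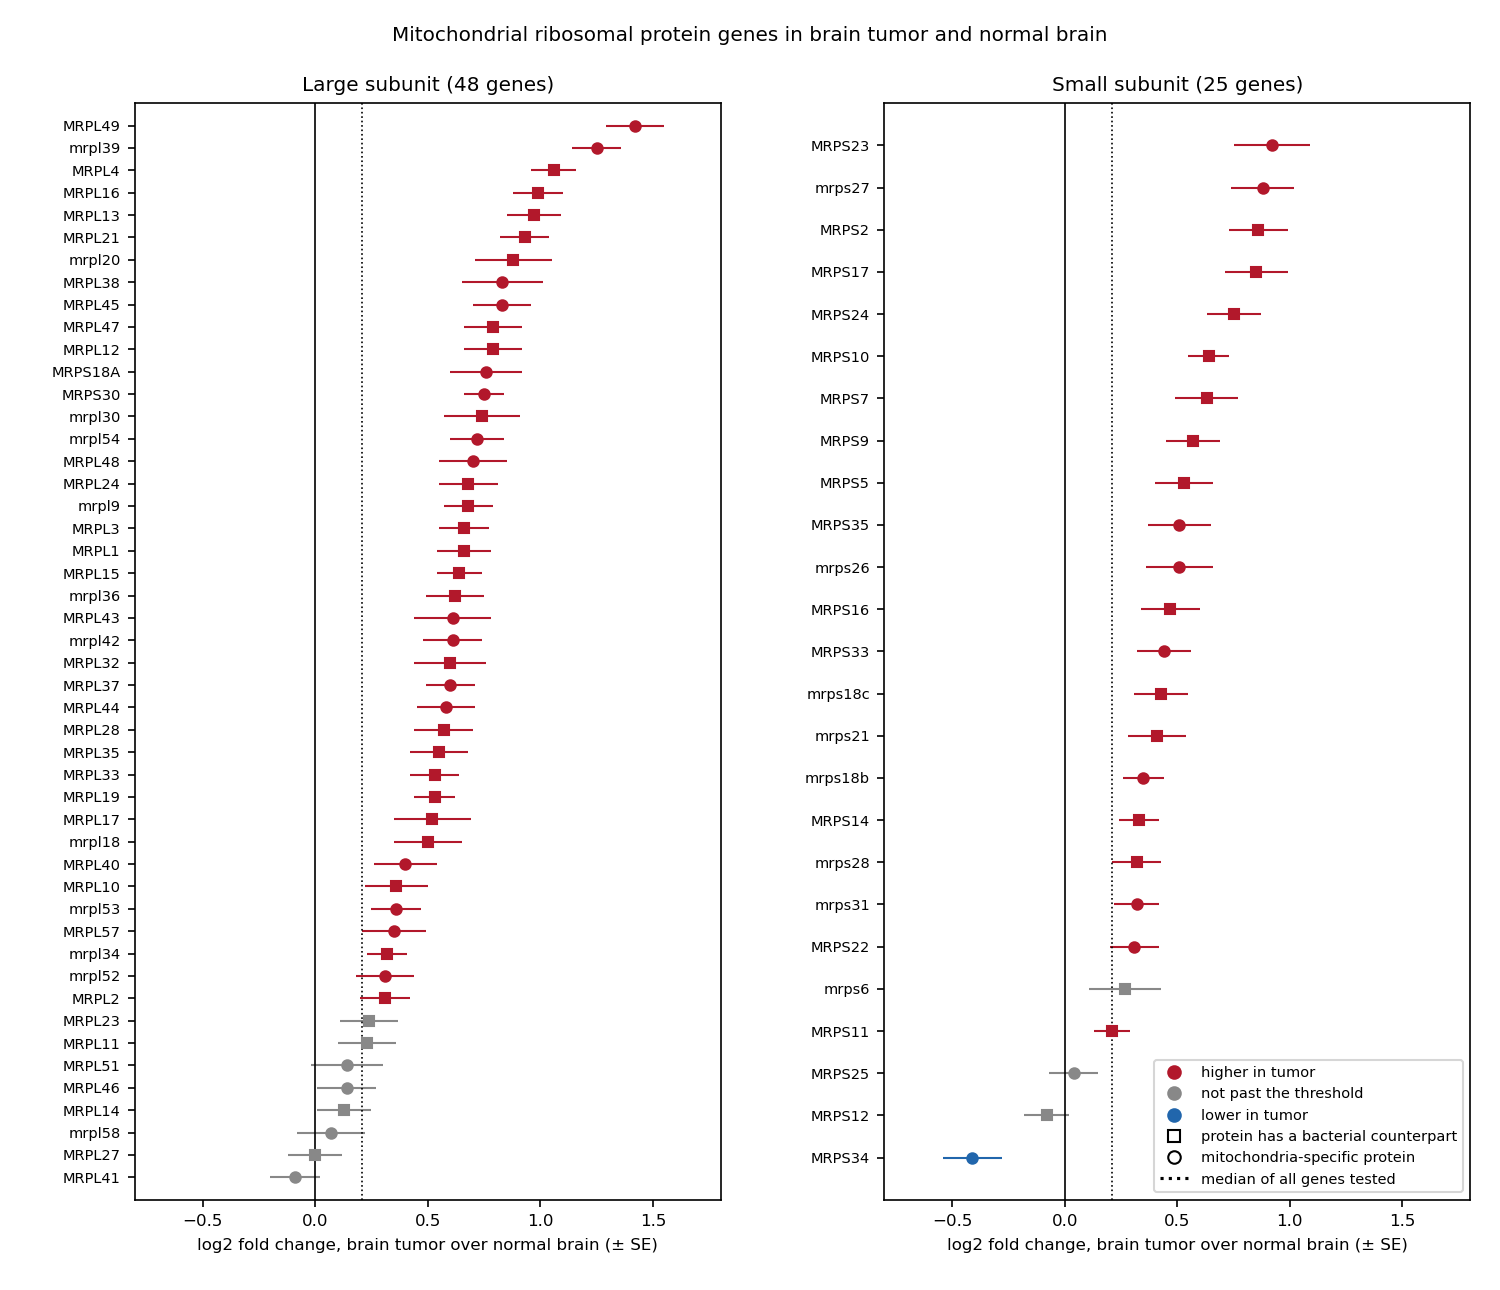
Log2 fold change of brain tumor over normal brain (x axis, with SE) for each of the 48 large subunit genes (left) and the 25 small subunit genes (right), coloured by call and shaped by whether the protein was classed as having a bacterial counterpart. The middle range of the members, 0.32 to 0.74, lies to the right of the dotted line at 0.21, the median of all genes tested. MRPS34 alone is called lower.

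The size of these changes depends on how libraries are scaled. The median log2 fold change of all 19260 genes was 0.21 under trimmed-mean scaling, the main one, and 0.02 under median-ratio factors. Relative to that median the members stood 0.34 higher with either scaling, and 64 of 73 members lay above it with the first and 63 with the second. A change of scaling moves all genes by nearly the same amount. This distance could therefore hardly differ between scalings, and its likeness is no separate support. With median-ratio factors 41 members were higher, where 37.7% of all genes were higher, and 3 were lower, where 37.7% of all genes were lower. The 3 were MRPS34, MRPL41 and MRPS12. Under all 5 scalings tried, 41 members were called higher and 1, MRPS34, was called lower. The sign of 6 members differed among the scalings, and none of these passed the threshold with the main scaling. Of the 61 calls, 46 were kept with every single library left out and 21 under every alternative tried. The shares of all genes called under all 5 scalings, or keeping their calls in these ways, are not given here. At the same threshold the authors' deposited table had 41 members higher and 3 lower, where 36.8% of its 22513 genes were higher and 35.4% lower. The median log2 fold change there was 0.35 for the members and 0.06 for all genes.

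The excess of calls over the background was smaller in parts of the series, which hold fewer samples. In libraries 1 to 8 alone 33 members (45.2%) were higher and 0 lower, against 33.4% and 32.3% of all genes. In libraries 9 to 15 alone 25 members (34.2%) were higher, close to the 32.4% of all genes, and 1 was lower, against 29.8% of all genes. The median log2 fold change of the members remained above that of all genes, by 0.33 in libraries 1 to 8 and by 0.35 in libraries 9 to 15.

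Members of the large subunit rose somewhat more than those of the small subunit. Of 48 large subunit genes 40 rose and 0 fell, and the median log2 fold change was 0.61 (1.52-fold). Of 25 small subunit genes 21 rose and 1 fell, with a median of 0.44 (1.36-fold). Among all genes tested 43.5% rose and 33.4% fell. With median-ratio factors 31 of the 48 large subunit genes were higher and 1 was lower (median 0.41). Of the 25 small subunit genes only 10 were then higher and 2 lower (median 0.24), where 37.7% of all genes went each way. The ratio of the mean FPKM of large to small subunit genes was 1.09 to 1.23 in brain tumor and 1.02 to 1.06 in normal brain, so the libraries of the groups did not overlap. Whether a protein was classed as having a bacterial counterpart went with little difference. The classes follow names and can part relatives: of the paralogs, mrps18c was classed with a counterpart and MRPS18A and mrps18b as mitochondria-specific. In the large subunit 24 of 28 genes with a counterpart and 16 of 20 mitochondria-specific genes rose, with medians of 0.61 in both classes. In the small subunit 13 of 15 and 8 of 10 rose, with medians of 0.47 and 0.39. With median-ratio factors 19 of 28 and 12 of 20 were higher in the large subunit, and 7 of 15 and 3 of 10 in the small. The difference between the subunits was not tested as such.

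The 3 members that at least doubled belong to the large subunit. MRPL49 (ENSDARG00000075422), a mitochondria-specific protein of the large subunit, had 25.3 CPM in the lowest, 32.2 in the median and 44.5 in the highest brain tumor, against 9.95, 12.3 and 15.8 CPM in normal brain. All 7 tumors lay above all normal brains, with a log2 fold change of 1.42 ± 0.13 (SE; adjusted p = 8.02e-08). The product of mrpl39 (ENSDARG00000041570) is related in sequence to threonyl-tRNA synthetases. Its transcript had 31.9, 46.4 and 51.1 CPM in the lowest, median and highest tumor, against 16.2, 18.3 and 20.8 CPM in normal brain. The groups did not overlap here either, and the log2 fold change was 1.25 ± 0.11 (adjusted p = 4.38e-08). MRPL4 (ENSDARG00000058824), whose bacterial counterpart lines the tunnel through which new chains leave the ribosome, had 33.8, 40.6 and 54.1 CPM in tumor and 18.2, 19.0 and 23.3 CPM in normal brain. It rose by a log2 fold change of 1.06 ± 0.10 (adjusted p = 1.54e-07), with no overlap. These 3 genes stayed past the threshold under every alternative tried. With median-ratio factors the log2 fold change of MRPL4 was 0.86, below 2-fold.

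MRPL16 and MRPL13 came next. MRPL16 (ENSDARG00000075325), counterpart of a bacterial protein close to the peptidyl transferase centre, had 42.9, 60.1 and 75.4 CPM in the lowest, median and highest tumor, against 27.9, 30.4 and 32.5 CPM in normal brain (log2 fold change 0.99 ± 0.11, adjusted p = 7.08e-07). MRPL13 (ENSDARG00000056903), an early assembling protein in bacteria, had 22.0 ± 4.11 CPM in tumor (SD; 16.2 to 29.6) and 11.2 ± 1.15 CPM in normal brain (9.65 to 13.2), a log2 fold change of 0.97 ± 0.12 (adjusted p = 1.98e-06). In both genes all tumors exceeded all normal brains, but brain tumor 13 was the lowest tumor for MRPL16 and the highest for MRPL13. MRPL21 and mrpl20, counterparts of bacterial proteins that bind the large ribosomal RNA, rose by 0.93 ± 0.11 (adjusted p = 1.4e-06) and 0.88 ± 0.17 (adjusted p = 0.000206).

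Around the functional centres of the large subunit the values were uneven. The stalk that recruits translation factors carries MRPL12, which in human cells also binds the mitochondrial RNA polymerase. MRPL12 (ENSDARG00000038768) had 33.8, 55.8 and 68.6 CPM in the lowest, median and highest tumor, against 24.9, 31.4 and 34.0 CPM in normal brain. It rose by a log2 fold change of 0.79 ± 0.13 (adjusted p = 2.83e-05), and 6 of 7 tumors lay above the highest normal brain. Its stalk partner MRPL10 (ENSDARG00000045091) rose by 0.36 ± 0.14 (adjusted p = 0.0288), with only 3 tumors above all normal brains. That call was lost with median-ratio factors (adjusted p = 0.294) and when brain tumor 13 or 14 or normal brain 1, 2, 3, 4 or 11 was left out, where the log2 fold change was 0.18 without brain tumor 13 and 0.34 without normal brain 3. MRPL11, at the base of the stalk, did not pass (log2 fold change 0.23 ± 0.13, adjusted p = 0.12), and its value was 0.036 without brain tumor 13 and 0.282 without brain tumor 6.

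The protein exit side showed a similar mixture. MRPL24 (ENSDARG00000019222), by the mouth of the exit tunnel, had 28.7, 30.7 and 51.7 CPM in tumor and 17.3, 22.0 and 23.1 CPM in normal brain (log2 fold change 0.68 ± 0.13, adjusted p = 0.000129). MRPL45, which holds the ribosome to the inner membrane, rose by 0.83 ± 0.13 (adjusted p = 2.21e-05), with 6 tumors above all normal brains. MRPL47, also by the exit, rose by 0.79 ± 0.13 (adjusted p = 2.97e-05), with no overlap. MRPL23, another protein of the tunnel exit, had 30.2, 36.0 and 52.1 CPM in tumor and 26.6, 32.6 and 38.0 CPM in normal brain and did not pass (log2 fold change 0.24 ± 0.13, adjusted p = 0.0992). Its value was 0.061 without brain tumor 14 and 0.286 without brain tumor 7.

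On the central protuberance, the part that faces the small subunit's head, MRPL38 rose by 0.83 ± 0.18 (adjusted p = 0.000526) and MRPL48 by 0.70 ± 0.15 (adjusted p = 0.000521). MRPL40 rose by 0.40 ± 0.14 (adjusted p = 0.0181), but not with median-ratio factors (adjusted p = 0.223), nor without brain tumor 8, 13 or 14 or normal brain 1, 4 or 11, where its log2 fold change was 0.23 without brain tumor 8. MRPL46 did not pass (log2 fold change 0.14 ± 0.13, adjusted p = 0.351). In MRPL46 the groups were intermingled: 4 tumors lay above all normal brains and 2 below all of them. The gene mrpl58 encodes a peptidyl-tRNA hydrolase that frees stalled chains and is built into the large subunit of mammals. It had a median of 14.7 CPM in both groups, with a highest value of 20.8 CPM in tumor and 15.7 CPM in normal brain, and did not pass (log2 fold change 0.07 ± 0.15, adjusted p = 0.694). MRPL44, related to ribonuclease III, rose by 0.58 ± 0.13 (adjusted p = 0.000542).

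Besides MRPL11, MRPL23, MRPL46 and mrpl58, the large subunit genes that did not pass were MRPL14, MRPL27, MRPL41 and MRPL51. MRPL27, whose bacterial counterpart reaches into the peptidyl transferase centre, had 9.32, 12.7 and 16.6 CPM in tumor and 12.1, 12.7 and 14.6 CPM in normal brain, with a log2 fold change of 0.00 ± 0.12 (adjusted p = 0.974). The tumor values lay on both sides of the normal ones. MRPL41 had a median of 15.2 CPM in tumor, with a highest value of 18.2, and a median of 16.3 CPM in normal brain, with a highest value of 18.7 (log2 fold change -0.09 ± 0.11, adjusted p = 0.486). With median-ratio factors MRPL41 was called lower (log2 fold change -0.28, adjusted p = 0.0332). MRPL14, at the face that joins the small subunit, had a log2 fold change of 0.13 ± 0.12 (adjusted p = 0.333), which was 0.015 without normal brain 1 and 0.203 without brain tumor 6. MRPL51 had one of 0.14 ± 0.16 (adjusted p = 0.41).

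A pair of genes named for the small subunit encode proteins that sit in the large subunit of mammalian mitoribosomes, and they were counted there. MRPS30 (ENSDARG00000104111) had 29.4, 32.7 and 40.2 CPM in tumor and 17.6, 18.8 and 22.3 CPM in normal brain, without overlap (log2 fold change 0.75 ± 0.09, adjusted p = 1.29e-06). It was among the steadiest members between tumors, with an SD of log2 CPM of 0.15. MRPS18A (ENSDARG00000024465) rose by a similar amount, 0.76 ± 0.16 (adjusted p = 0.000438), but was among the most variable, at 22.3, 37.8 and 54.8 CPM in tumor against 18.6, 21.4 and 22.4 CPM in normal brain. Its paralogs in the small subunit rose less. The gene mrps18c had a log2 fold change of 0.43 ± 0.12 (adjusted p = 0.00462), which missed the threshold when normal brain 1 was left out (log2 fold change 0.30, adjusted p = 0.0524). For mrps18b it was 0.35 ± 0.09 (adjusted p = 0.00198), with all tumors above all normal brains. With median-ratio factors MRPS18A was called higher, and mrps18c (adjusted p = 0.0893) and mrps18b (adjusted p = 0.153) were not. The differences between the paralogs were not tested.

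In the small subunit MRPS23, mrps27, MRPS2, MRPS17 and MRPS24 rose most. MRPS23 (ENSDARG00000033973), a mitochondria-specific protein, had 10.2, 17.7 and 26.1 CPM in the lowest, median and highest tumor and 7.43, 9.97 and 11.5 CPM in normal brain (log2 fold change 0.92 ± 0.17, adjusted p = 0.000105). Brain tumor 6 was the only tumor within the normal range. The product of mrps27 (ENSDARG00000059234) is a pentatricopeptide repeat protein, of a family that binds RNA. Its transcript had 23.9, 35.1 and 50.1 CPM in tumor and 16.7, 20.1 and 21.0 CPM in normal brain, without overlap (log2 fold change 0.88 ± 0.14, adjusted p = 1.95e-05). MRPS2 (ENSDARG00000103198), mutated in a human respiratory chain disorder, had 39.8, 47.8 and 73.1 CPM in tumor and 25.5, 27.0 and 34.5 CPM in normal brain (log2 fold change 0.86 ± 0.13, adjusted p = 1.36e-05). MRPS17, counterpart of a bacterial protein that binds the small ribosomal RNA, rose by 0.85 ± 0.14 (adjusted p = 3.55e-05). MRPS24, counterpart of a bacterial protein at the entry of the messenger RNA channel, rose by 0.75 ± 0.12 (adjusted p = 2.32e-05). MRPS10 (ENSDARG00000045913), a protein of the head of the subunit, had the smallest p of the small subunit genes: 23.4, 29.9 and 33.4 CPM in tumor and 17.5, 18.5 and 19.6 CPM in normal brain (log2 fold change 0.64 ± 0.09, adjusted p = 1.05e-05).

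MRPS7, MRPS16 and MRPS22 are among the genes whose loss causes mitochondrial disease in people. They were picked after their values were seen and are not a full list of such genes. MRPS7 rose by 0.63 ± 0.14 (adjusted p = 0.000702), MRPS16 by 0.47 ± 0.13 (adjusted p = 0.0028) and MRPS22 by 0.31 ± 0.11 (adjusted p = 0.02). With median-ratio factors MRPS16 and MRPS22 did not pass (adjusted p = 0.0611 and 0.368). MRPS22 also missed the threshold when brain tumor 8, 13 or 14 or normal brain 1, 4 or 11 was left out.

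MRPS34 was the exception. This mitochondria-specific protein is needed in mice and people to keep the small subunit and its RNA stable. MRPS34 (ENSDARG00000057910) fell to 16.1, 21.8 and 28.2 CPM in the lowest, median and highest brain tumor, against 24.0, 29.0 and 33.3 CPM in normal brain. The groups overlapped: 4 tumors lay below all normal brains and the other 3 within their range. Its log2 fold change was -0.41 ± 0.13 (adjusted p = 0.0077), or 0.63 below the median of all genes. It ranged from -0.52 to -0.39 with each library left out in turn, and stayed past the threshold in each. In libraries 1 to 8 alone the value was -0.44 and did not pass (adjusted p = 0.0644).

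The other small subunit genes that did not pass were MRPS12, MRPS25 and mrps6. MRPS12, the counterpart of the bacterial protein of the decoding centre, had 23.1, 24.1 and 34.8 CPM in tumor and 24.3, 26.8 and 30.6 CPM in normal brain (log2 fold change -0.08 ± 0.10, adjusted p = 0.471). Its highest value was in brain tumor 13, while 4 other tumors lay below all normal brains. Without brain tumor 13 it was called lower (log2 fold change -0.22, adjusted p = 0.013), and so it was with median-ratio factors (-0.28, adjusted p = 0.0234). MRPS25 had a log2 fold change of 0.04 ± 0.11 (adjusted p = 0.723). For mrps6 it was 0.27 ± 0.16 (adjusted p = 0.131), and it ranged from 0.068 without brain tumor 13 to 0.346 without brain tumor 6, where the gene was called higher (adjusted p = 0.0454).

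Levels can be compared between genes as FPKM, which is per length. Mean FPKM of the 73 members spanned 9.87 to 49.2 in brain tumor and 7.43 to 36.5 in normal brain, with medians over the members of 23.9 and 17.5. The mean FPKM of 67 members was higher in tumor. The share of all genes with a higher mean FPKM in tumor is not given here. On unscaled library sizes the median log2 fold change was 0.11 for all genes and 0.43 for the members. The order of the members was largely kept, with a Spearman correlation of 0.78 between the group means over the 73 genes, given as a description since genes are not independent replicates. In tumor mrpl30 ranked highest at 49.2 ± 9.65 FPKM (SD, n = 7), while MRPS12 at 31.9 ± 3.37 FPKM ranked 14 and MRPS34 at 20.9 ± 4.38 FPKM ranked 46. These 3 genes had the highest levels in normal brain, at 32.1 ± 6.11 FPKM for mrpl30, 36.5 ± 2.37 FPKM for MRPS12 and 29.9 ± 2.97 FPKM for MRPS34 (SD, n = 8). The 3 genes lowest in normal brain were mrpl39 (16.6 ± 3.26 FPKM in tumor, 7.43 ± 0.637 in normal brain), mrpl9 (11.9 ± 0.974 in tumor, 8.05 ± 1.08 in normal brain) and MRPL10 (9.87 ± 1.88 in tumor, 8.37 ± 0.719 in normal brain). MRPL49 ranked 9 in tumor, at 33.5 ± 4.47 FPKM, and 58 in normal brain, at 13.6 ± 1.72 FPKM. Fold change and the transcript length behind the FPKM had a Spearman correlation of 0.02 over the members, whose lengths were 396 to 6190 bases.

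**Figure D2:**
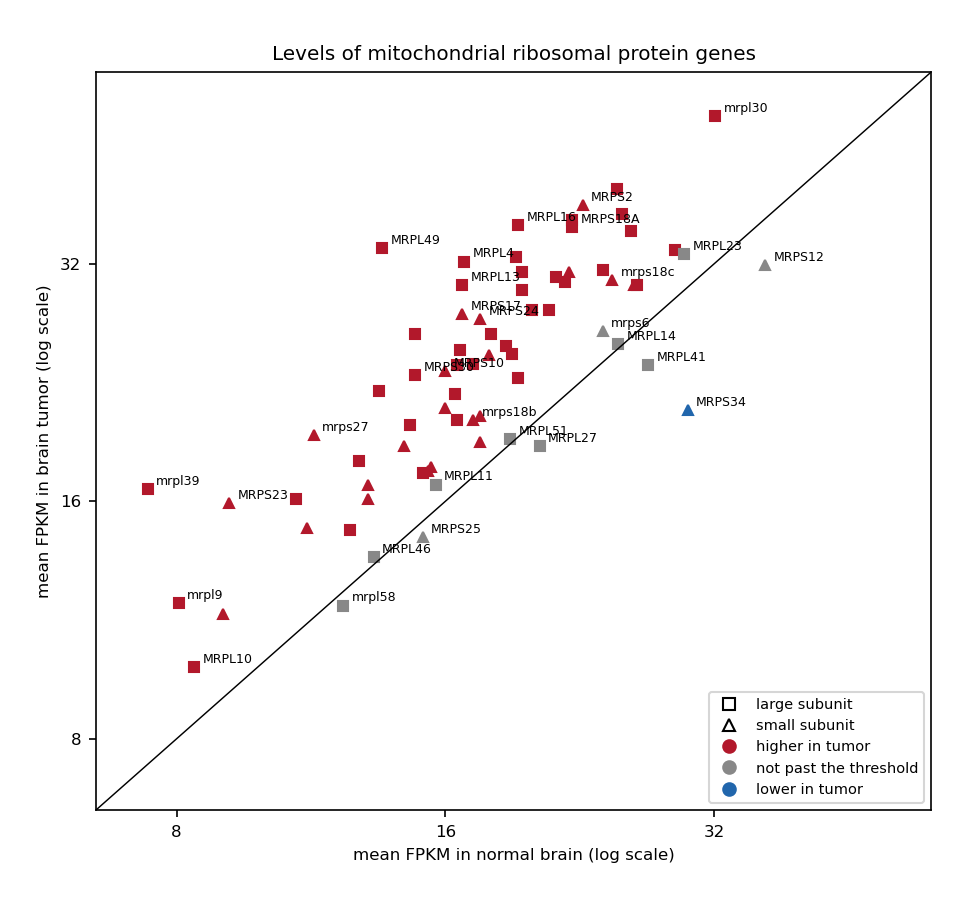
Mean FPKM of each member in brain tumor (y axis) against normal brain (x axis), both on log scales, with the line of equal values. 67 of 73 members lie above the line, and MRPS34 and MRPS12, among the highest in normal brain, lie below it.

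Seen library by library, the tumors shared the direction and differed in size. The median over the members of the log2 difference from the normal mean was 0.38 to 0.92 in the tumors and -0.09 to 0.16 in the normal brains. Brain tumor 13 held the highest value, 0.92, and brain tumor 7 the next, 0.61. These were the libraries with the lowest scaling factors, 0.825 and 0.857. Brain tumor 13 was the highest tumor in 50 of 73 members, and in 9 it was the lowest: mrpl39, MRPL16, MRPL1, MRPS18A, MRPL41, mrps31, mrpl52, MRPL46 and MRPL23. Before scaling, the members summed to 1880 to 2180 CPM of the unscaled library total in tumor, where brain tumors 13 and 5 were nearly equal at 2180 and 2170, and 1450 to 1650 in normal brain. Normal brain 11 was the highest normal library, in 41 of 73 members. With brain tumor 13 and normal brains 1, 2 and 4 left out together, 48 members (65.8%) were higher, against 41.4% of all genes, and 2 were lower, against 31.9%. Their median was then 0.45, only 0.22 above that of all genes, where it was 0.34 above with all libraries. The tumors also spread more widely. The median SD of log2 CPM over the members was 0.29 in tumor and 0.13 in normal brain. Over all genes tested it was larger, 0.49 in tumor and 0.19 in normal brain. The SD was larger in tumor than in normal brain in 97.3% of members, against 92.2% of all genes tested. MRPL38 varied most between tumors, from 26.7 to 81.2 CPM, and MRPS11 least, with an SD of 0.11 in each group.

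**Figure D3:**
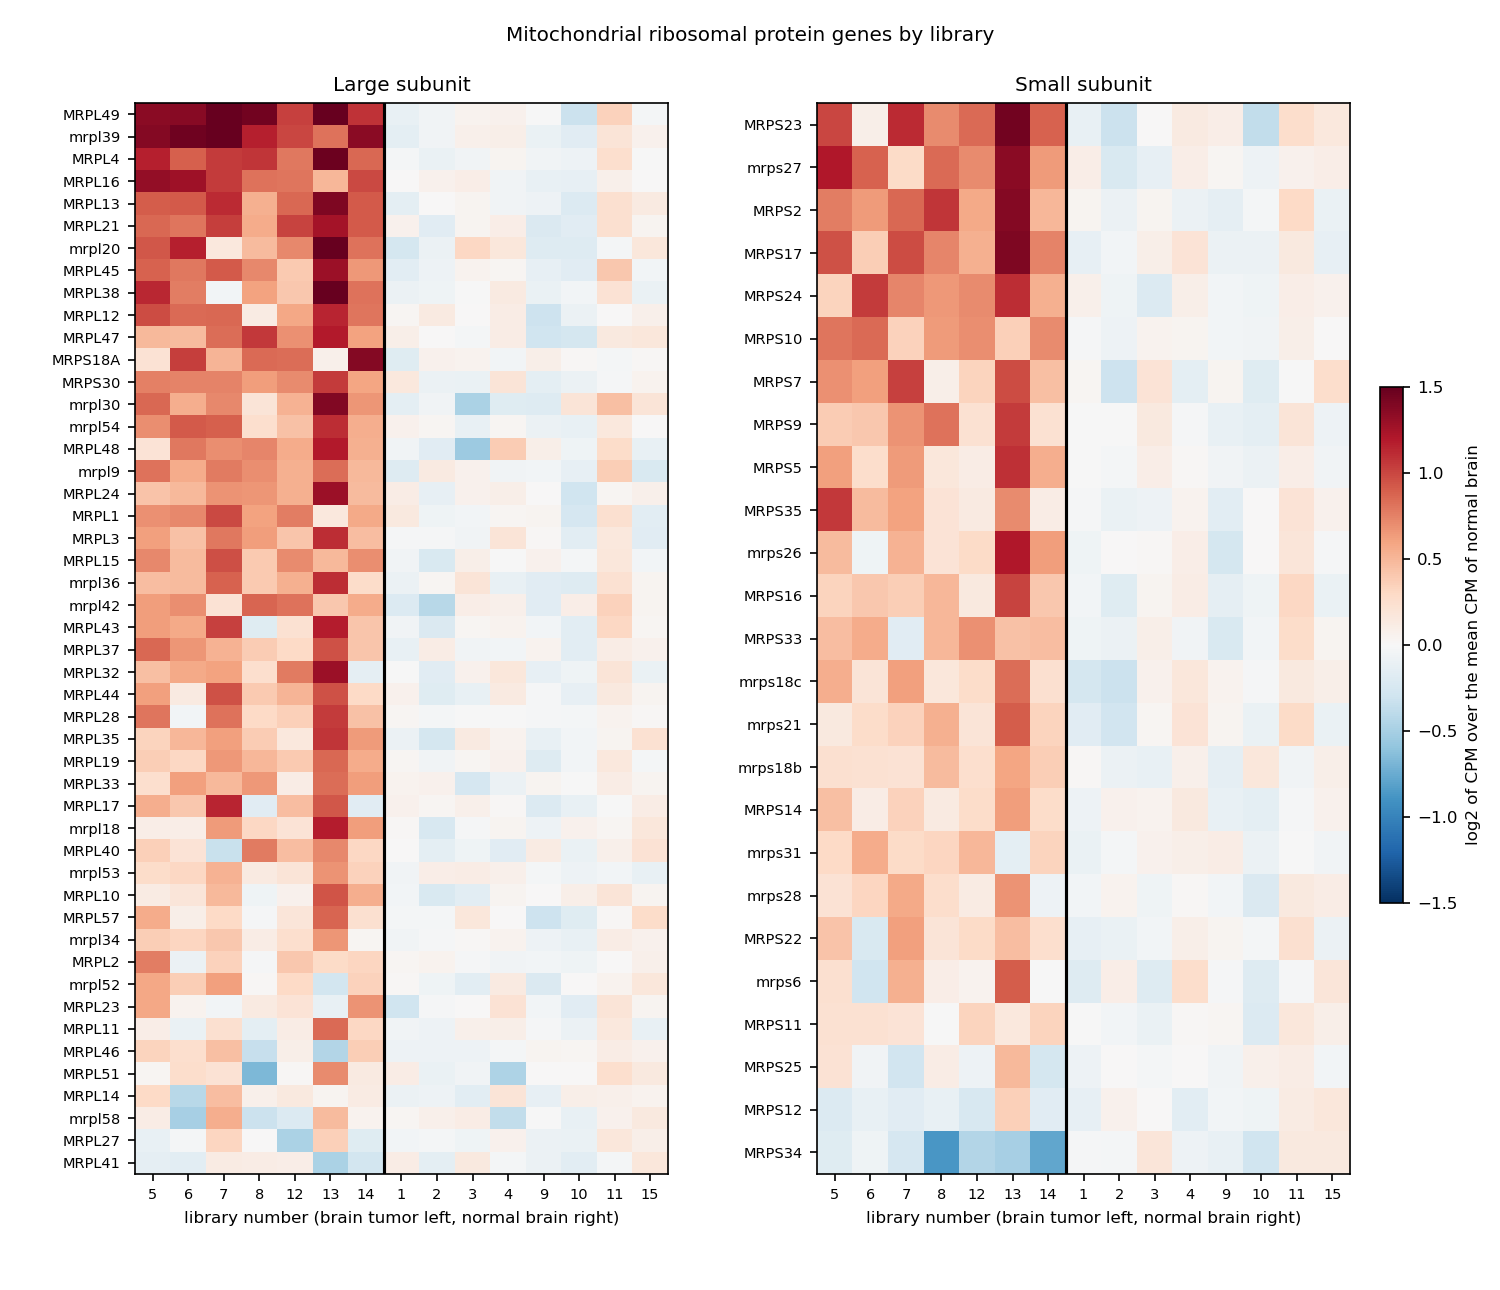
Log2 of CPM over the mean CPM of normal brain for each member (rows, by fold change within the large and the small subunit) in each library (columns, 7 brain tumors left of the line and 8 normal brains right of it); the colour scale is limited at 1.5 in both directions. Brain tumor 13 is darkest in most rows and pale or blue in a few, such as MRPS18A and MRPL41.

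Other genes of mitochondrial gene expression were more often higher than lower, beside 43.5% higher and 33.4% lower among all genes. Other subunits of the ribosome, whose genes carry other names, rose in 4 of 5 cases: chchd1 (log2 fold change 0.74), DAP3 (0.57), AURKAIP1 (0.50) and GADD45GIP1 (0.40). The fifth, ptcd3, had 0.18 ± 0.15 and did not pass (adjusted p = 0.297). Genes of ribosome assembly and ribosomal RNA processing rose in 18 of 26 cases and 1 was lower (median log2 fold change 0.60). RPUSD4, a pseudouridine synthase of the large ribosomal RNA, rose most (1.44 ± 0.14), followed by GTPBP10, a GTPase of large subunit assembly (1.35 ± 0.18). NOA1, another GTPase of ribosome assembly, fell by 0.55 on the log2 scale. Translation factors rose in 8 of 15 cases and fell in 0 (median 0.39), led by PDF, the peptide deformylase (0.99), and MRRF, the ribosome recycling factor (0.89). Mitochondrial tRNA synthetases and related enzymes rose in 10 of 18 cases (median 0.50), with vars2 (0.93) and LARS2 (0.83) in front, while cars2 fell by 0.70 on the log2 scale. Genes that copy and transcribe mitochondrial DNA rose in 10 of 11 cases (median 0.78), among them the helicase TWNK (1.28) and the DNA packaging protein TFAM (0.98). With median-ratio factors 37.7% of all genes were higher and 37.7% lower, and fewer genes of each list were higher. These were 3 of 5 other subunits, without GADD45GIP1 (adjusted p = 0.0998), and 14 of 26 assembly genes. So were 6 of 15 translation factors and 8 of 18 tRNA synthetases, both not far from the share of all genes. Of the genes acting on mitochondrial DNA 8 of 11 were higher. Called lower were 2 assembly genes, 2 tRNA synthetases and 1 gene acting on mitochondrial DNA.

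**Figure D4:**
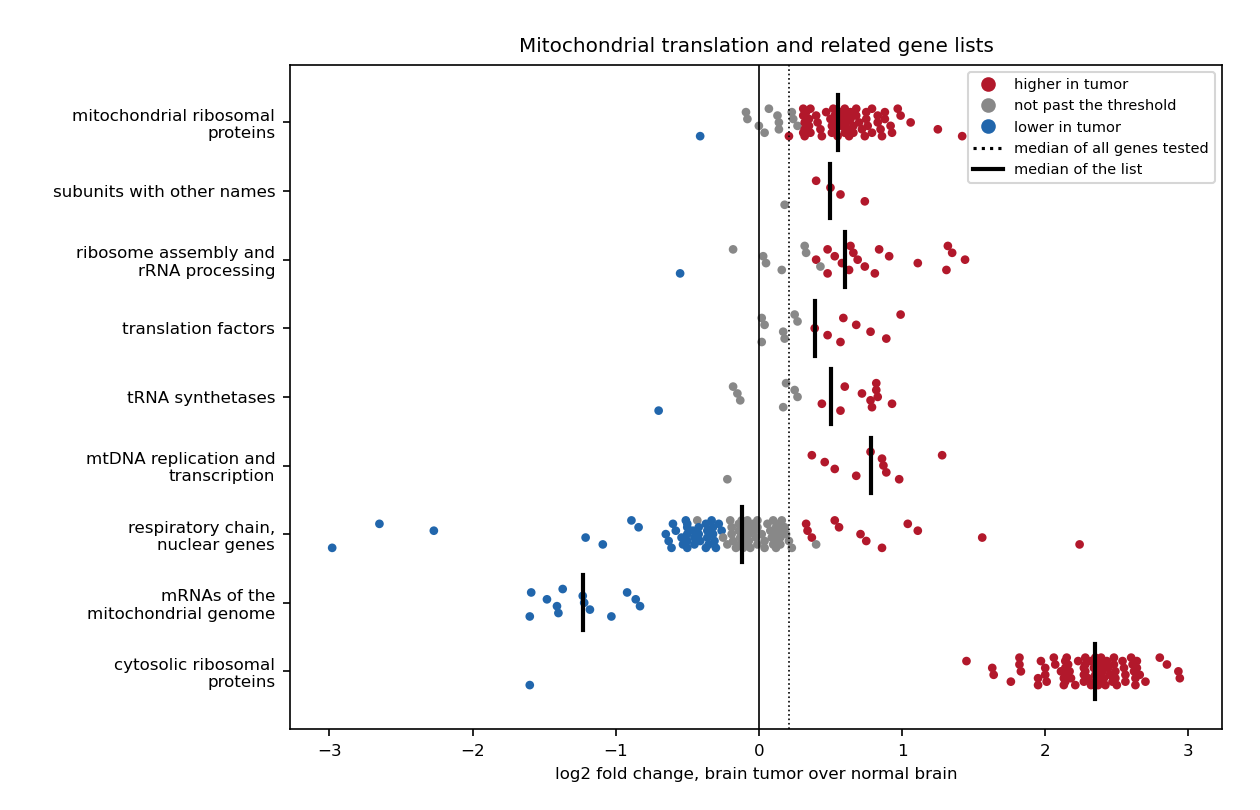
Log2 fold change of brain tumor over normal brain (x axis) for each gene of 9 lists (rows), coloured by call, with the median of each list as a black bar and the median of all genes as a dotted line. The members and the other mitochondrial expression lists centre between 0.39 and 0.78, the nuclear respiratory chain genes at -0.12, the messenger RNAs of the mitochondrial genome at -1.23 and the cytosolic ribosomal proteins at 2.35.

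The messenger RNAs that these ribosomes translate went the other way. All 13 protein genes of the mitochondrial genome fell, where 33.4% of all genes tested fell. Their median log2 fold change was -1.23 (-1.43 with median-ratio factors). In all 13 every tumor lay below every normal brain, which was so in 24.6% of all genes. Whether the selection of polyadenylated RNA bears on the counts of these messengers was not tested. MT-ND2 and MT-CYB fell most, by 1.60 and 1.59 on the log2 scale. The members' summed counts equalled 5.99% to 9.98% of the summed counts of these messengers in tumor and 2.12% to 2.57% in normal brain. Nuclear genes of the respiratory chain and the ATP synthase, assembly factors included, rose in 12 of 104 cases (11.5%) and fell in 38 (36.5%). Among all genes tested 43.5% rose and 33.4% fell. The median of the respiratory chain list was -0.12. With median-ratio factors 8 of its genes rose and 59 fell (median -0.32), where 37.7% of all genes went each way. With the main scaling the extremes of this list were cox7a1 (2.24) and COX6A1 ENSDARG00000054588 (1.56) among those that rose. Among those that fell they were SDHD ENSDARG00000055712 (-2.98) and ndufa4b (-2.65). NDUFA4 ENSDARG00000099499, a gene of similar name to ndufa4b, rose (1.11, adjusted p = 1.43e-06). It averaged 189 CPM in tumor and 87.4 CPM in normal brain, against 52.2 and 328 CPM for ndufa4b. For COX6A1 and SDHD a more abundant ID had a smaller change. The gene cox6a1 ENSDARG00000022438 averaged 163 CPM in tumor and 199 CPM in normal brain (-0.28, adjusted p = 0.0414), and SDHD ENSDARG00000030139 averaged 56.2 CPM in tumor and 67.4 CPM in normal brain (-0.26, adjusted p = 0.0421). The call of COX6A1 ENSDARG00000054588 was lost without brain tumor 5 (log2 fold change 1.26, adjusted p = 0.0548). The members' summed counts equalled 19.9% ± 1.6 (SD) of the summed counts of these genes in tumor, against 12.6% ± 0.491 (SD) in normal brain, and the libraries of the groups did not overlap.

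Cytosolic ribosomal protein genes rose far more, in 80 of 81 cases, with a median log2 fold change of 2.35 (5.09-fold). The other 1 fell, while 43.5% of all genes tested rose and 33.4% fell. With median-ratio factors 80 were higher and 1 lower (median 2.15). Among the cytosolic genes rplp2l, a protein of the stalk of the cytosolic ribosome, rose by a log2 fold change of 2.93. The members' summed counts equalled 2.18% to 2.99% of the summed cytosolic ones in tumor and 7.85% to 9.95% in normal brain, without overlap. Genes often used as measures of mitochondrial content, such as import channels, fusion proteins and carriers, were mixed. Of the 25 tested 12 (48.0%) rose and 6 (24.0%) fell, against 43.5% and 33.4% of all genes. With median-ratio factors 9 of the 25 rose and 8 fell, where 37.7% of all genes went each way. With the main scaling the median of the 25 was 0.30. SLC25A4, an ADP/ATP carrier, had the largest increase (1.77 ± 0.77, adjusted p = 0.0467), at 14.4 ± 15.6 CPM in tumor and 4.22 ± 3.05 CPM in normal brain (SD, n = 7 and 8). That call was lost under most alternatives, and without brain tumor 14 the log2 fold change was 1.05 (adjusted p = 0.21). PHB2 (ENSDARG00000045297), a prohibitin of the inner membrane, rose by 0.89, and MFN1, a mitofusin, and tomm20a, an import receptor, fell by 1.68 and 1.27 on the log2 scale. Their more abundant relatives mfn1b and TOMM20 rose by log2 fold changes of 0.69 and 0.87.

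**Figure D5:**
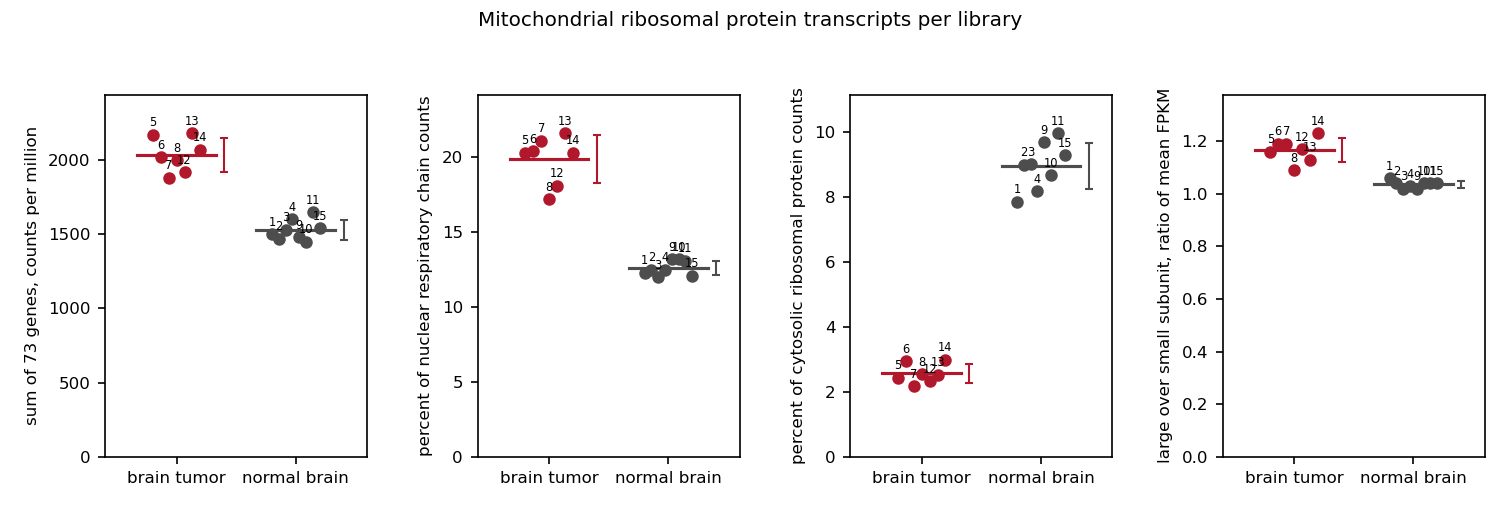
Each point is a library (numbered), with group mean and SD, brain tumor left and normal brain right: the summed CPM of the 73 members over unscaled library totals, their counts as a percent of nuclear respiratory chain counts and of cytosolic ribosomal protein counts, and the ratio of mean FPKM of large to small subunit genes. The groups do not overlap in any panel, and tumors are lower only in the panel relative to cytosolic ribosomal protein counts.

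Regulators linked to mitochondrial biogenesis moved in both directions, with 7 of 13 (53.8%) higher and 5 (38.5%) lower, against 43.5% and 33.4% of all genes tested. MYC (ENSDARG00000045695), a growth regulator, and pprc1, a coactivator of the family of PPARGC1A, rose by log2 fold changes of 3.41 ± 0.24 and 3.13 ± 0.20. The coactivators PPARGC1A and ppargc1b fell by 3.03 and 2.32 on the log2 scale, MYCN by 1.98 and the nuclear receptor ESRRA by 1.37. The subunits of the GABP factor were split. GABPB1 fell by 1.16 on the log2 scale, while GABPA and gabpb2a rose by log2 fold changes of 1.27 ± 0.10 and 1.22 ± 0.10. Whether any of them bears on the members was not tested.

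Markers of some cell types changed in larger shares than all genes tested, of which 43.5% rose and 33.4% fell. All 21 neuronal markers tested fell, and their summed level was 633 to 3270 CPM in tumor against 12300 to 14300 CPM in normal brain. All 21 cell division genes rose, to 2200 to 4180 CPM in tumor against 170 to 242 CPM in normal brain. Of 23 microglia and macrophage markers 21 rose (2700 to 5810 CPM in tumor, 1060 to 1980 CPM in normal brain). Of 16 oligodendrocyte lineage markers 13 rose and 1, mbpa, fell (15000 to 46200 CPM in tumor, 12900 to 19400 CPM in normal brain). Of 12 muscle markers tested 6 rose, or 50.0% (82.3 to 3230 CPM in tumor, 110 to 525 CPM in normal brain). Of 18 skin markers 4 rose, or 22.2% (592 to 2760 CPM in tumor, 226 to 4820 CPM in normal brain). The muscle share was near that of all genes, and the skin share was below it. Of 8 erythrocyte markers tested 4 fell (48.3 to 228 CPM in tumor, 145 to 259 CPM in normal brain). Of 4 liver markers tested 3 fell and 1 rose. The liver sum was 1.69 to 152 CPM in tumor, 13500 CPM in normal brain 1 and 10.9 to 24.4 CPM in the other normal brains. Of 5 photoreceptor markers tested 1 fell (4.11 to 50.1 CPM in tumor, 6.05 to 181 CPM in normal brain). None of these lists held a gene with 0 counts in a whole group. Their part in the values of the members was not tested.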

How the data were processed

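Per the labels' protocols, oligo dT selected RNA was prepared with TruSeq RNA v2 reagents and read for 50 cycles from a single end. That kit does not mark strand, so overlapping and antisense genes cannot be told apart. Novoalign 2.08.01 and DESeq2 are named in the submitters' processing notes; the counter, annotation and genome build were not stated, so no coordinates are printed. The deposited table holds 15 columns of raw counts, per the file headers, and 15 FPKM columns, which the authors normalised for transcript length and column total. It also holds deposited log2 fold changes (tumor over normal brain) and a deposited adjusted p-value for each gene. Of 22513 IDs 20915 had a symbol and 1598 had none.

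Counts were tested with edgeR 4.0.16 (R 4.3.3), quasi-likelihood F test, two-sided. The filter filterByExpr (minimum count 10, minimum total 15) kept 19260 genes, and left out 3253. TMM factors (trimmed means of log ratios) scaled the libraries, with p-values adjusted by Benjamini and Hochberg over all genes tested, threshold 0.05. All 7 tumors and 8 normal brains entered 1 fit; the labels give no batch. The SE of a log2 fold change is its absolute value over the square root of the F statistic. Log2 CPM carries a prior count of 2. The script was tested on simulated data in which few genes were changed, equally many up and down. That test does not bear on the choice of scaling where many genes change. Alternatives were other scalings (5 in all), filters, robust dispersions, DESeq2 1.42.0, limma-voom (limma 3.58.1), a term for library numbers, subsets of libraries, and leaving out each library. No pair of libraries had identical counts.

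The members and lists were chosen with earlier results of these data known, and lists carry no test of their own: their counts are read beside those over all genes. Named are, per subunit, the 5 members with the largest fold change, the 3 with the smallest p and the 3 with the lowest fold change; all members lower or not past the threshold; the 3 with the highest and lowest FPKM in normal brain; and members whose name and place differ. From other lists, the 2 genes changed most each way, and, save for marker lists, all of a direction with 5 or fewer. Other members were picked for their roles after their values were seen. Some genes that this rule names are not reported here.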

Additional observations from a re-analysis of the deposited data

Results flagged for a closer look

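Of 158 groups of values examined (each member's CPM in each group, and 6 summaries per library), 13 held a highest or lowest library far from the nearest other, by Dixon's test at the 95% level, which chance gives in about 1 in 20 groups. Brain tumor 13 was the high library for MRPL24 (51.7 CPM, next 34.0), MRPL11 (39.7, next 27.4), MRPS30 (40.2, next 32.9), mrpl18 (35.0, next 24.0), MRPS12 (34.8, next 25.1) and MRPS16 (27.8, next 19.4). It also stood apart in the median log2 difference of the members from normal brain (0.92, next 0.61) and in the SD of log2 FPKM over the members (0.64, next 0.56). Normal brain 11 was the high normal library for MRPS2 (34.5 CPM, next 29.0), MRPL4 (23.3, next 20.2), MRPL43 (22.2, next 18.6) and MRPL45 (18.2, next 14.3). In brain tumor 7 MRPS33 was low, at 17.2 CPM, where the next tumor had 26.4.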

How the results depend on the processing

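Each member had at least 100 counts in every library, and the SE of the members' log2 fold changes was 0.08 to 0.18. Whether depth bears on their calls was not tested. The count of members higher, 61, was 33 in libraries 1 to 8 alone (33.4% of all genes higher) and 25 in libraries 9 to 15 alone (32.4% of all genes higher), which hold fewer samples. With each library left out in turn it was 47 (without normal brain 1) to 61, and the median was 0.41 (without brain tumor 13) to 0.59. The 47 were 64.4% of the members. Without normal brain 1 the genes higher among all tested were also fewer, 7625 of 19109, against 8370 of 19260 with all libraries. The count of members lower, 1, was 3 with median-ratio factors and with DESeq2, 2 with library size alone, without the 50 largest genes, with a mean of at least 5 CPM and without normal brain 1, 2 and 4 and brain tumor 13, and 0 in libraries 1 to 8; it was 1 to 2 with a library left out, 2 being without brain tumor 13. The median, 0.55, was 0.35 with median-ratio factors and with DESeq2. No paired analysis was possible because the labels give no pairing between the groups.

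The sign turned only for 7 members that had not passed the threshold, and none passed it there. For MRPL27 (0.00) it was -0.191 with median-ratio factors, -0.024 under upper-quartile scaling, -0.115 on unscaled library sizes (library size alone), -0.147 without the 50 largest genes, -0.003 without a filter, -0.138 with a mean of at least 5 CPM, -0.198 with DESeq2, -0.036 with limma-voom, -0.048 in libraries 1 to 8, -0.227 in libraries 9 to 15 and -0.082 without the 4 libraries. In the same order, leaving out settings where the sign held, mrpl58 gave -0.133, -0.059 (library size alone), -0.083, -0.072 (mean CPM), -0.137 (DESeq2), -0.071, -0.042 and -0.071. MRPS25 gave -0.151, -0.068 (library size alone), -0.105, -0.096 (mean CPM), -0.155 (DESeq2), -0.083, -0.085 and -0.077. MRPL14 gave -0.072, -0.026 (without the 50 largest genes), -0.011 (mean CPM), -0.075 (DESeq2) and -0.068 (libraries 9 to 15). MRPL46 gave -0.068, -0.022 (without the 50 largest genes), -0.072 (DESeq2) and -0.153 (libraries 9 to 15). MRPL51 gave -0.057, -0.006 (without the 50 largest genes), -0.060 (DESeq2), -0.005 (libraries 1 to 8) and -0.065 (without the 4 libraries). MRPL11 gave -0.099 in libraries 1 to 8. With a library left out in turn, MRPL27 ranged from -0.116 to 0.078, mrpl58 from -0.075 to 0.147, MRPS25 from -0.101 to 0.096, MRPL46 from -0.003 to 0.150 and MRPL51 from -0.036 to 0.171. Over all named genes and settings, 2642 values kept direction and side of the threshold, 274 lost and 10 gained a call. The cause of these changes was not tested.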
